A study of Caenorhabditis elegans with 4 samples.

Results

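Among the operons of *C. elegans*, 5 pairs of a first and a second gene were followed here in animals fed on *xrn-2* dsRNA: *egl-44~F28B12.1*, *C45G9.13~C45G9.14*, *kmo-1~R07B7.4*, *gale-1~efsc-1* and *trap-3~eri-5*. They are 5 of the 1353 operons in the operon list used, and their 10 genes are 10 of the 20380 genes in the count table. The pairs were chosen by the measured log2 fold changes between *xrn-2(RNAi)* and mock, namely by an excess of the second gene over the first in both replicates. Those differences are therefore given as a description, with no test. The excess of the second gene was reached in more than a single way. *F28B12.1* and *C45G9.14* had many more reads in *xrn-2(RNAi)*, whereas the reads of *kmo-1* were much fewer and those of its partner *R07B7.4* were similar. *gale-1* and *trap-3* had fewer reads while *efsc-1* and *eri-5* had more, so a rise of the second gene describes the set only in part.

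In *C. elegans*, genes of an operon are transcribed from a common promoter into a polycistronic pre-mRNA, which is cut into mRNAs of single genes by 3′ end formation and *trans*-splicing. The first mRNA usually receives the spliced leader SL1 and the later ones SL2, and an operon may in addition hold an internal promoter that serves its later genes alone. XRN2 is a nuclear 5′-to-3′ exoribonuclease that degrades RNA with an unprotected 5′ end and takes part in the termination of transcription by RNA polymerase II. Counts of reads per gene carry neither the 5′ end nor the spliced leader of an mRNA. Transcripts begun at the operon promoter and those begun inside the operon can thus not be told apart in these data for any of the 5 pairs.

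The animals were wild-type N2 worms grown at 20 °C from L1 to L4. They were fed either on bacteria with an insertless vector (mock) or on bacteria making dsRNA against *xrn-2*. Whole animals were harvested, so that in each value fewer cells of a type and less RNA per cell cannot be told apart. Each condition had 2 libraries of poly(A) RNA, replicates 1 and 2, and the *xrn-2(RNAi)* cultures grew more slowly and were collected later than mock. According to the methods, the shape of the vulva was checked so that animals were at mid-L4. The effects of RNAi and of the longer time on the food cannot be told apart.

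The libraries held between 41105706 and 48451504 counted reads, with a median of 182 to 319 reads per gene. For *xrn-2* itself, 3993 reads were counted in mock and 5835 in *xrn-2(RNAi)* of replicate 1, and 5948 and 5977 in replicate 2. The count of the targeted gene was thus not lower, and the conditions are given as the libraries are labelled. According to the paper, XRN2 lowers its own mRNA, and loss of its activity raises it. The count alone therefore does not measure how far XRN2 was depleted. With *xrn-2* RNAi, the paper also saw a stronger signal from a GFP reporter of the *xrn-2* operon. Both libraries of replicate 2, and mock most of all, stood apart from replicate 1 in genes of the moult and of yolk. The libraries within each replicate differed in them as well. By correlation with an L4 time course, the methods place both replicate 1 libraries at the same time point. They place those of replicate 2 at later time points, with mock after *xrn-2(RNAi)*. The adult cuticle collagen *col-19* had 32 reads in mock replicate 1, 1670 in *xrn-2(RNAi)* replicate 1, 89974 in mock replicate 2 and 9628 in *xrn-2(RNAi)* replicate 2. Of the cuticle collagen *dpy-7*, 8417, 5632, 24 and 568 reads were counted in the same order. Summed over 7 yolk and oocyte genes, the scaled count was 4111 and 55762 in replicate 1 and 2431760 and 413376 in replicate 2, again mock before *xrn-2(RNAi)*. All 7 of these genes and all 4 hypodermal markers were detected, and none of the 11 moved in the same direction in both replicates. The summed scaled count of 33 spermatogenesis genes, 8 of them at 0 throughout, was 6875 and 12563 in replicate 1 and 12614 and 13969 in replicate 2, and that of 3 intestinal genes ranged from 13595 to 22992. The part of these markers in the results on the 5 operons was not tested, and each replicate is given by itself below. The fold changes within replicate 1 compare libraries of replicate 1 only, on a common scale set from all 4 libraries.

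To compare libraries, the reads of each were brought to a common total of 43719995, the mean of the 4, and a pseudocount of 8 was used for log2 fold changes between *xrn-2(RNAi)* and mock of the same replicate. Across 13967 genes whose scaled counts averaged 50 or more, the median was 0.16 (replicate 1) and 0.34 (replicate 2) on this scale, and -0.01 and -0.04 by TMM scaling, which trims extreme genes. A log2 fold change of that size in a single gene is accordingly no more than the shift of the median gene. An operon's second-minus-first difference is free of this shift for all but low counts.

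**Figure D1:**
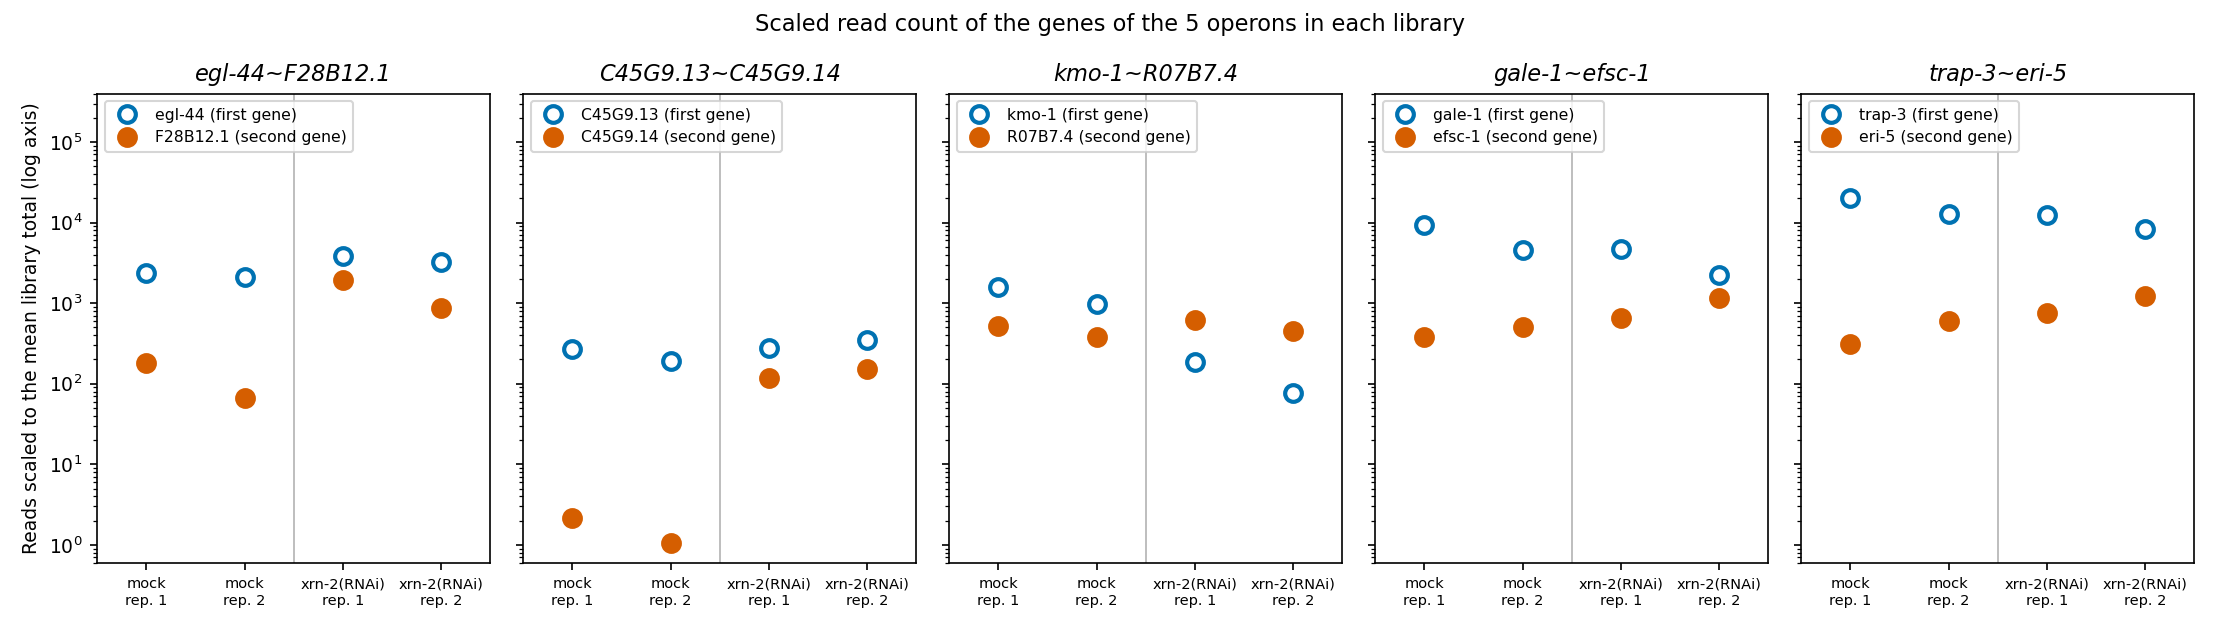
Reads scaled to the mean library total (log axis) of the first gene (open blue circles) and the second gene (filled orange circles) of the 5 operons in each of the 4 libraries, 1 point per library. *C45G9.14* goes from 2.13 and 1.04 in mock to 117 and 153 in *xrn-2(RNAi)*, and *kmo-1* lies above *R07B7.4* in both mock libraries and below it in both *xrn-2(RNAi)* libraries.

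*egl-44* encodes a TEA-domain transcription factor that acts with EGL-46 in neurons, and *F28B12.1* is a gene to which no role is given here. Of *F28B12.1* (WBGene00017894, chromosome II), 171 reads were counted in mock and 2170 in *xrn-2(RNAi)* of replicate 1. In replicate 2, its counts were 64 and 864. Both *xrn-2(RNAi)* libraries thus lay above both mock libraries by a wide margin. On average, the mock libraries had 124 ± 81.5 scaled reads of *F28B12.1* (SD, n = 2) and the *xrn-2(RNAi)* libraries 1415 ± 768 (SD, n = 2). Within the replicates it was 10.8-fold (95% counting interval 9.21 to 12.7) and 13.1-fold (10.1 to 17.1) higher. These intervals are exact (Clopper-Pearson) and cover counting error only, as reads without molecular identifiers are not independent molecules. *egl-44* (WBGene00001208) had 2206 reads in mock and 4282 in *xrn-2(RNAi)* of replicate 1, and 2039 and 3198 in replicate 2. Its log2 fold change of 0.72 and 0.60 stood only a little above the median gene, and with TMM scaling it was 0.54 and 0.22. Both genes of the operon had more reads in each *xrn-2(RNAi)* library, with an excess of *F28B12.1* over *egl-44* of 2.65 (log2) in replicate 1 and 2.96 in replicate 2.

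The largest ratio within the 5 operons belonged to *C45G9.14* (WBGene00044409, chromosome III), which was close to absent in mock. It had 2 and 1 reads in mock replicates 1 and 2, against 130 and 152 in *xrn-2(RNAi)*. The ratio of the scaled counts was 55.1 in replicate 1 (95% counting interval 15 to 460.2) and 147 in replicate 2 (26.1 to 5858). With so few mock reads, the size of the ratio is poorly determined. With a pseudocount of 8, the log2 fold change of *C45G9.14* was 3.63 and 4.16, while edgeR, which adds less, gave 6.05 ± 0.72 (standard error). The value for this gene therefore follows the pseudocount. Its partner *C45G9.13* (WBGene00016684), today named *nlp-43* and by its name a neuropeptide-like protein, was counted 251 and 182 times in mock, against 311 and 342 times in *xrn-2(RNAi)*. Its log2 fold change was 0.07 and 0.84 with total-count scaling and -0.10 and 0.46 with TMM, so that the direction in replicate 1 rests on the scaling. The excess of the second gene was 3.56 and 3.32.

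The pair *kmo-1~R07B7.4* lies on chromosome V. *kmo-1* encodes kynurenine monooxygenase, an enzyme of tryptophan breakdown, and *R07B7.4* is today named *kmo-2* after its similarity to it. Of *kmo-1* (WBGene00011089), 1472 reads were counted in mock and 204 in *xrn-2(RNAi)* of replicate 1. In replicate 2, 940 and 75 reads were counted. The average was 1272 ± 415 scaled reads in the mock libraries (SD, n = 2) and 130 ± 76.6 in those of *xrn-2(RNAi)* (SD, n = 2), or 8.51-fold and 12.9-fold lower within the replicates. *R07B7.4* (WBGene00011088) had 488 and 364 reads in mock compared with 691 and 449 in *xrn-2(RNAi)*, and its scaled counts of the 2 conditions overlapped. Its log2 fold change was 0.26 and 0.25, which became 0.09 and -0.13 with TMM scaling, and the edgeR estimate was -0.01 ± 0.34. No rise of *R07B7.4* was thus detectable, and the difference of 3.30 and 3.81 between the genes came from the lower counts of *kmo-1*. The sum of the scaled reads of the pair was 0.387 and 0.390 of that in mock.

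At *gale-1~efsc-1* on chromosome I and *trap-3~eri-5* on chromosome IV, both genes contributed to the difference. *gale-1* (WBGene00008132) encodes the epimerase that interconverts UDP-glucose and UDP-galactose. It had 8842 reads in mock and 5256 in *xrn-2(RNAi)* of replicate 1, and 4405 and 2220 in replicate 2. Within the replicates this was 1.98-fold and 2.05-fold lower, but the mock libraries differed as much from each other. Scaled, mock replicate 2 had 4586 reads and *xrn-2(RNAi)* replicate 1 had 4743, so the conditions overlapped. *efsc-1* (WBGene00008133) had 362 and 483 reads in mock compared with 723 and 1136 in *xrn-2(RNAi)*. It was 1.69-fold (95% counting interval 1.49 to 1.93) and 2.28-fold (2.05 to 2.54) higher, and its conditions did not overlap. The excess of *efsc-1* over *gale-1* was 1.74 and 2.21.

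*trap-3* (WBGene00021420) encodes a subunit of the translocon-associated protein complex, which assists the passage of secretory proteins into the endoplasmic reticulum, and was the most abundant of the 10 genes. It had 19051 reads in mock and 13957 in *xrn-2(RNAi)* of replicate 1, and 12202 and 8283 in replicate 2. Its conditions just failed to overlap, with a scaled 12594 in *xrn-2(RNAi)* replicate 1 against 12702 in mock replicate 2. *eri-5* (WBGene00021419) encodes a Tudor domain protein of the ERI complex, in which DCR-1 and RRF-3 make endogenous siRNAs. Of *eri-5*, 293 and 571 reads were counted in mock compared with 846 and 1220 in *xrn-2(RNAi)*. It was 2.45-fold (95% counting interval 2.14 to 2.81) and 2.07-fold (1.87 to 2.29) higher, and the excess over *trap-3* was 1.96 and 1.64.

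**Figure D2:**
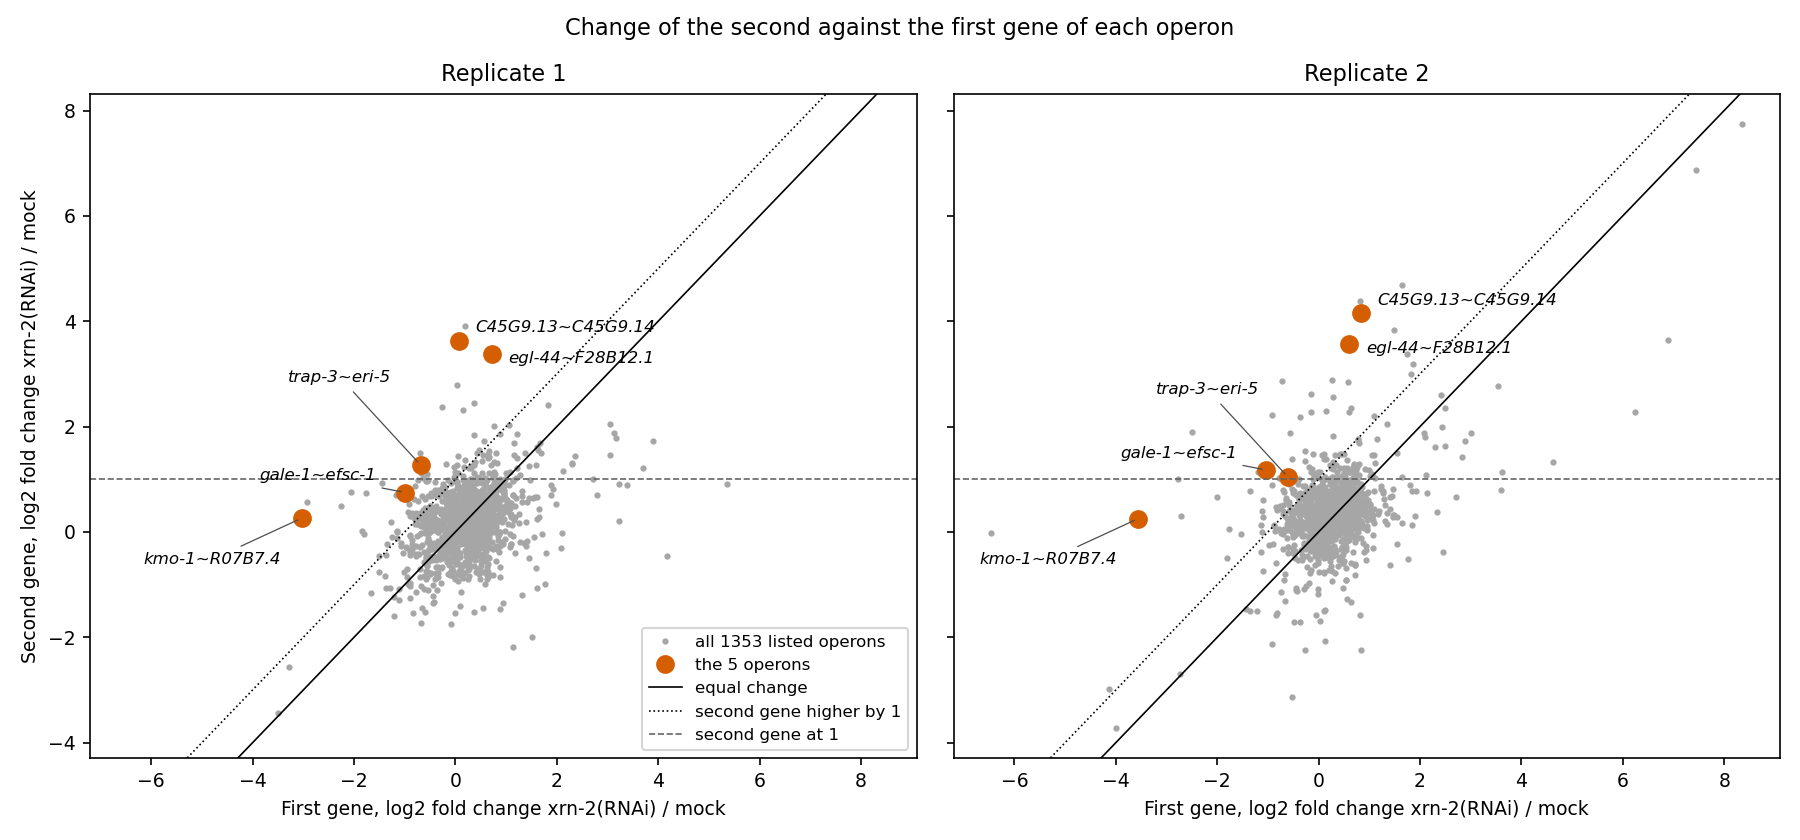
Log2 fold change of the second gene (vertical axis) against that of the first gene (horizontal axis) for all 1353 operons in replicate 1 (left) and replicate 2 (right), with the 5 operons in orange. The pairs of *egl-44* and *C45G9.13* lie above the other 3 because their second genes are high, at 3.37 to 4.16, and *kmo-1~R07B7.4* lies to the left because *kmo-1* is low, at -3.03 and -3.56.

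The study's cut-off asks that the second gene be higher by at least 1 on the log2 scale, and exceed the first gene by at least 1. The methods apply it to replicate 1, whose libraries they describe as better matched in developmental time than those of replicate 2. In replicate 1 alone, 27 of the 1353 operons passed. In both replicates, 8 (0.591%) passed, and 3 of the 5 operons were among them: *egl-44~F28B12.1*, *C45G9.13~C45G9.14* and *trap-3~eri-5*. *eri-5* was just inside with a log2 fold change of 1.04 in replicate 2. With TMM scaling it had 0.66 there, below the cut-off, so that *trap-3~eri-5* was no longer among the operons that passed, 7 in all. *efsc-1* was just outside with 0.75 in replicate 1, and *R07B7.4* was far below. When both *xrn-2(RNAi)* libraries were set against mock replicate 1 alone, 23 operons passed, among them the same 3, and against mock replicate 2 alone 24 passed, without *trap-3~eri-5*. A difference of at least 1 in both replicates was found for 32 operons (2.37%), the 5 included, and one of the same size in favour of the first gene for 29 (2.14%), of which none is among the 5. By the difference, the 5 operons took ranks 2 to 22 in replicate 1 and 3 to 35 in replicate 2. As background over all operons, an edgeR fit of 1320 operons with the replicate as a block called 11 (0.833%) with the second gene higher and 9 (0.682%) with the first gene higher at an adjusted p of 0.05. The block decided these calls, as 0 passed in either direction without it, and DESeq2 with the block called 80 and 54. The fit is no test of the 5 operons, which were chosen on the same contrast. With total-count scaling, 6 of the 10 genes had both *xrn-2(RNAi)* libraries above both mock libraries, as did 35.3% of all genes tested. Another 2 had both below, against 10.3%. *C45G9.13* is among the 6, but its log2 fold change in replicate 1 was -0.10 with TMM scaling. A log2 fold change of at least 1 in both replicates was found for 3 of the 10 genes (*F28B12.1*, *C45G9.14* and *eri-5*) and 7.6% of all genes tested. *kmo-1* alone was at -1 or lower in both, as 2.19% of all genes tested were. These counts of the 10 genes come from the contrast by which the pairs were chosen. They describe the set and are no test of it.

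The libraries of a single condition, which the choice of the pairs did not compare, show how much the balance of each pair varies between cultures, as far as its counts allow. For *C45G9.13~C45G9.14*, the second-minus-first difference was 0.31 between mock replicates 2 and 1, and 0.07 between the *xrn-2(RNAi)* replicates. For *kmo-1~R07B7.4*, it was 0.23 and 0.74. Both values of *kmo-1~R07B7.4* and the *xrn-2(RNAi)* value of *C45G9.13~C45G9.14* were far below the difference between conditions. The mock value of *C45G9.13~C45G9.14* cannot show a stable balance, as *C45G9.14* had only 2 and 1 reads there. At such counts the pseudocount keeps the log2 change of *C45G9.14* small (-0.16), and the 0.31 mainly follows the -0.48 of *C45G9.13*. In *egl-44~F28B12.1*, the second-minus-first difference was -1.20 and -0.90, as *F28B12.1* had fewer reads in either library of replicate 2. In *gale-1~efsc-1*, the difference between replicates was 1.41 in mock and 1.89 in *xrn-2(RNAi)*. *trap-3~eri-5* had 1.59 and 1.27. These last 2 pairs differed between cultures of the same condition nearly as much as between conditions, while the quartiles of all operons were -0.50 and 0.38 between the mock libraries. Left without mock replicate 1, the difference between conditions was 1.26 for *gale-1~efsc-1* and 1.01 for *trap-3~eri-5*. Without mock replicate 2 it was 2.68 and 2.59. The direction stayed the same whichever library was left out, for each of the 5 operons. As the pairs were chosen for this direction in both replicates, its persistence was largely set by the choice.

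**Figure D3:**
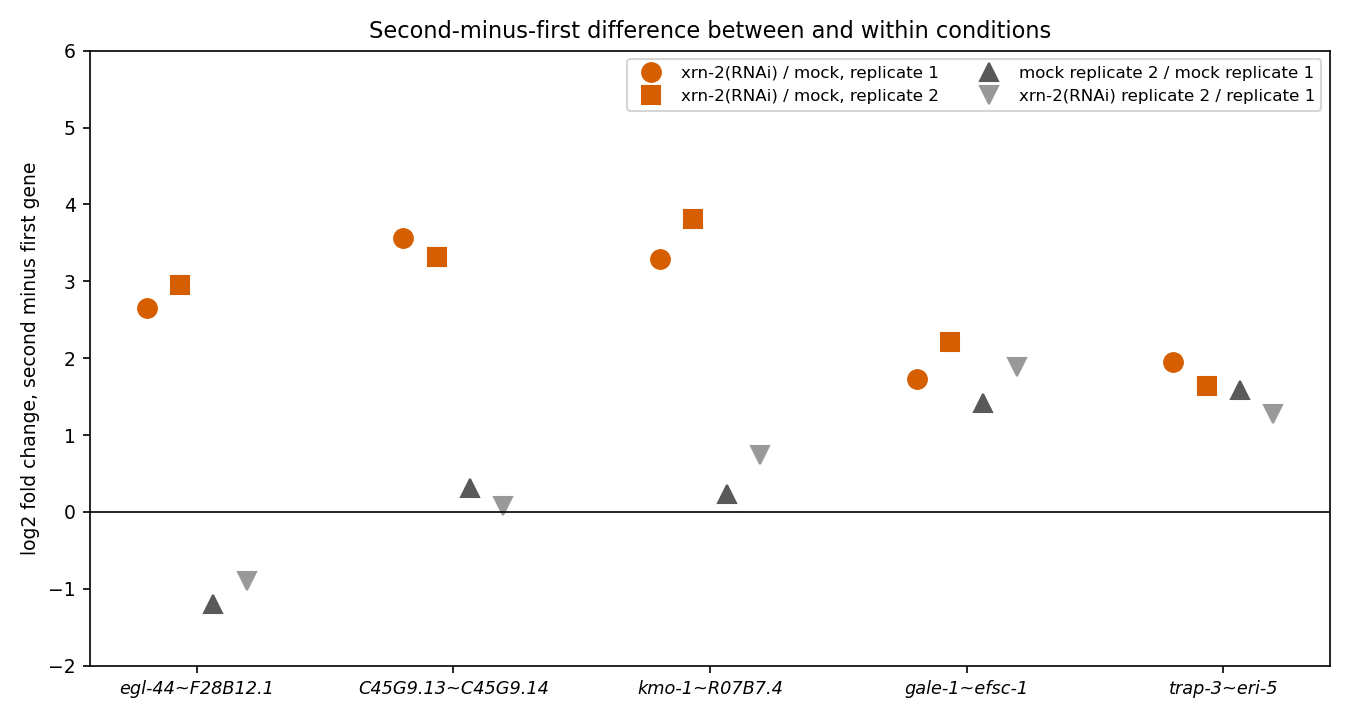
Difference of the log2 fold changes of the second and the first gene for the 5 operons, between *xrn-2(RNAi)* and mock within each replicate (orange) and between the replicates of 1 condition (grey), 1 point per pair of libraries. For *gale-1~efsc-1* and *trap-3~eri-5*, the grey points (1.27 to 1.89) are close to the orange ones (1.64 to 2.21), and for the other 3 they are well apart. The grey mock point of *C45G9.13~C45G9.14* rests on 2 and 1 reads of *C45G9.14* and cannot show how much this balance varies.

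The level of the second relative to the first gene in mock enters the difference by which the pairs were chosen, and a low ratio in mock favours a pair. The ratios are therefore given as a description. To compare the levels of different genes, scaled counts were divided by exon length. In mock, the second gene was the lower in each of the 5 operons. The second-to-first ratio per kilobase was 0.241 and 0.0977 in mock replicates 1 and 2 for *egl-44~F28B12.1*, and 0.231 and 0.269 for *kmo-1~R07B7.4*. It was 0.0372 and 0.0997 for *gale-1~efsc-1*. In *C45G9.13~C45G9.14*, it was 0.00886 and 0.00611, and in *trap-3~eri-5* 0.00579 and 0.0176. The median of the 1320 operons with lengths was 0.726 and 0.667, and the 5 ratios thus lay in the lower part of the distribution. Only 1.98% and 4.19% of operons had a lower ratio than *trap-3~eri-5*, and 23.7% and 11.7% had a lower one than *egl-44~F28B12.1*.

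In *xrn-2(RNAi)*, the balance per kilobase lay at a different point in each pair. In *kmo-1~R07B7.4* it was inverted, with ratios of 2.36 and 4.16. In *egl-44~F28B12.1* the genes came to similar levels, with 1.58 and 0.841. *C45G9.14* reached 0.465 and 0.494 of *C45G9.13*, and *efsc-1* 0.125 and 0.465 of *gale-1*. *eri-5* remained a minor transcript beside *trap-3*, at 0.0228 and 0.0555. The median operon was at 0.716 and 0.715.

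In the reference annotation (WBcel235, another assembly than the one the reads were aligned to), the pairs differ in their layout. The distance from the end of the first to the start of the second gene was 51 bp in *gale-1~efsc-1* and 186 bp in *kmo-1~R07B7.4*. It was 336 bp in *C45G9.13~C45G9.14*, 561 bp in *trap-3~eri-5* and 2096 bp in *egl-44~F28B12.1*. The median of 1320 operons was 125 bp, and 4 of the 5 pairs had a distance above it. Between *egl-44* and *F28B12.1*, the annotation places a further protein-coding gene on the same strand, *F28B12.6*. It starts 32 bp after *egl-44* and was not among the counted genes. By this annotation, *egl-44* and *F28B12.1* are thus not adjacent. Several transcript starts are annotated for some second genes. The 3 starts of *R07B7.4* spread over 642 bp, and those of *eri-5* lie 4310 bp apart. *efsc-1* and *C45G9.14* have a single annotated start.

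**Figure D4:**
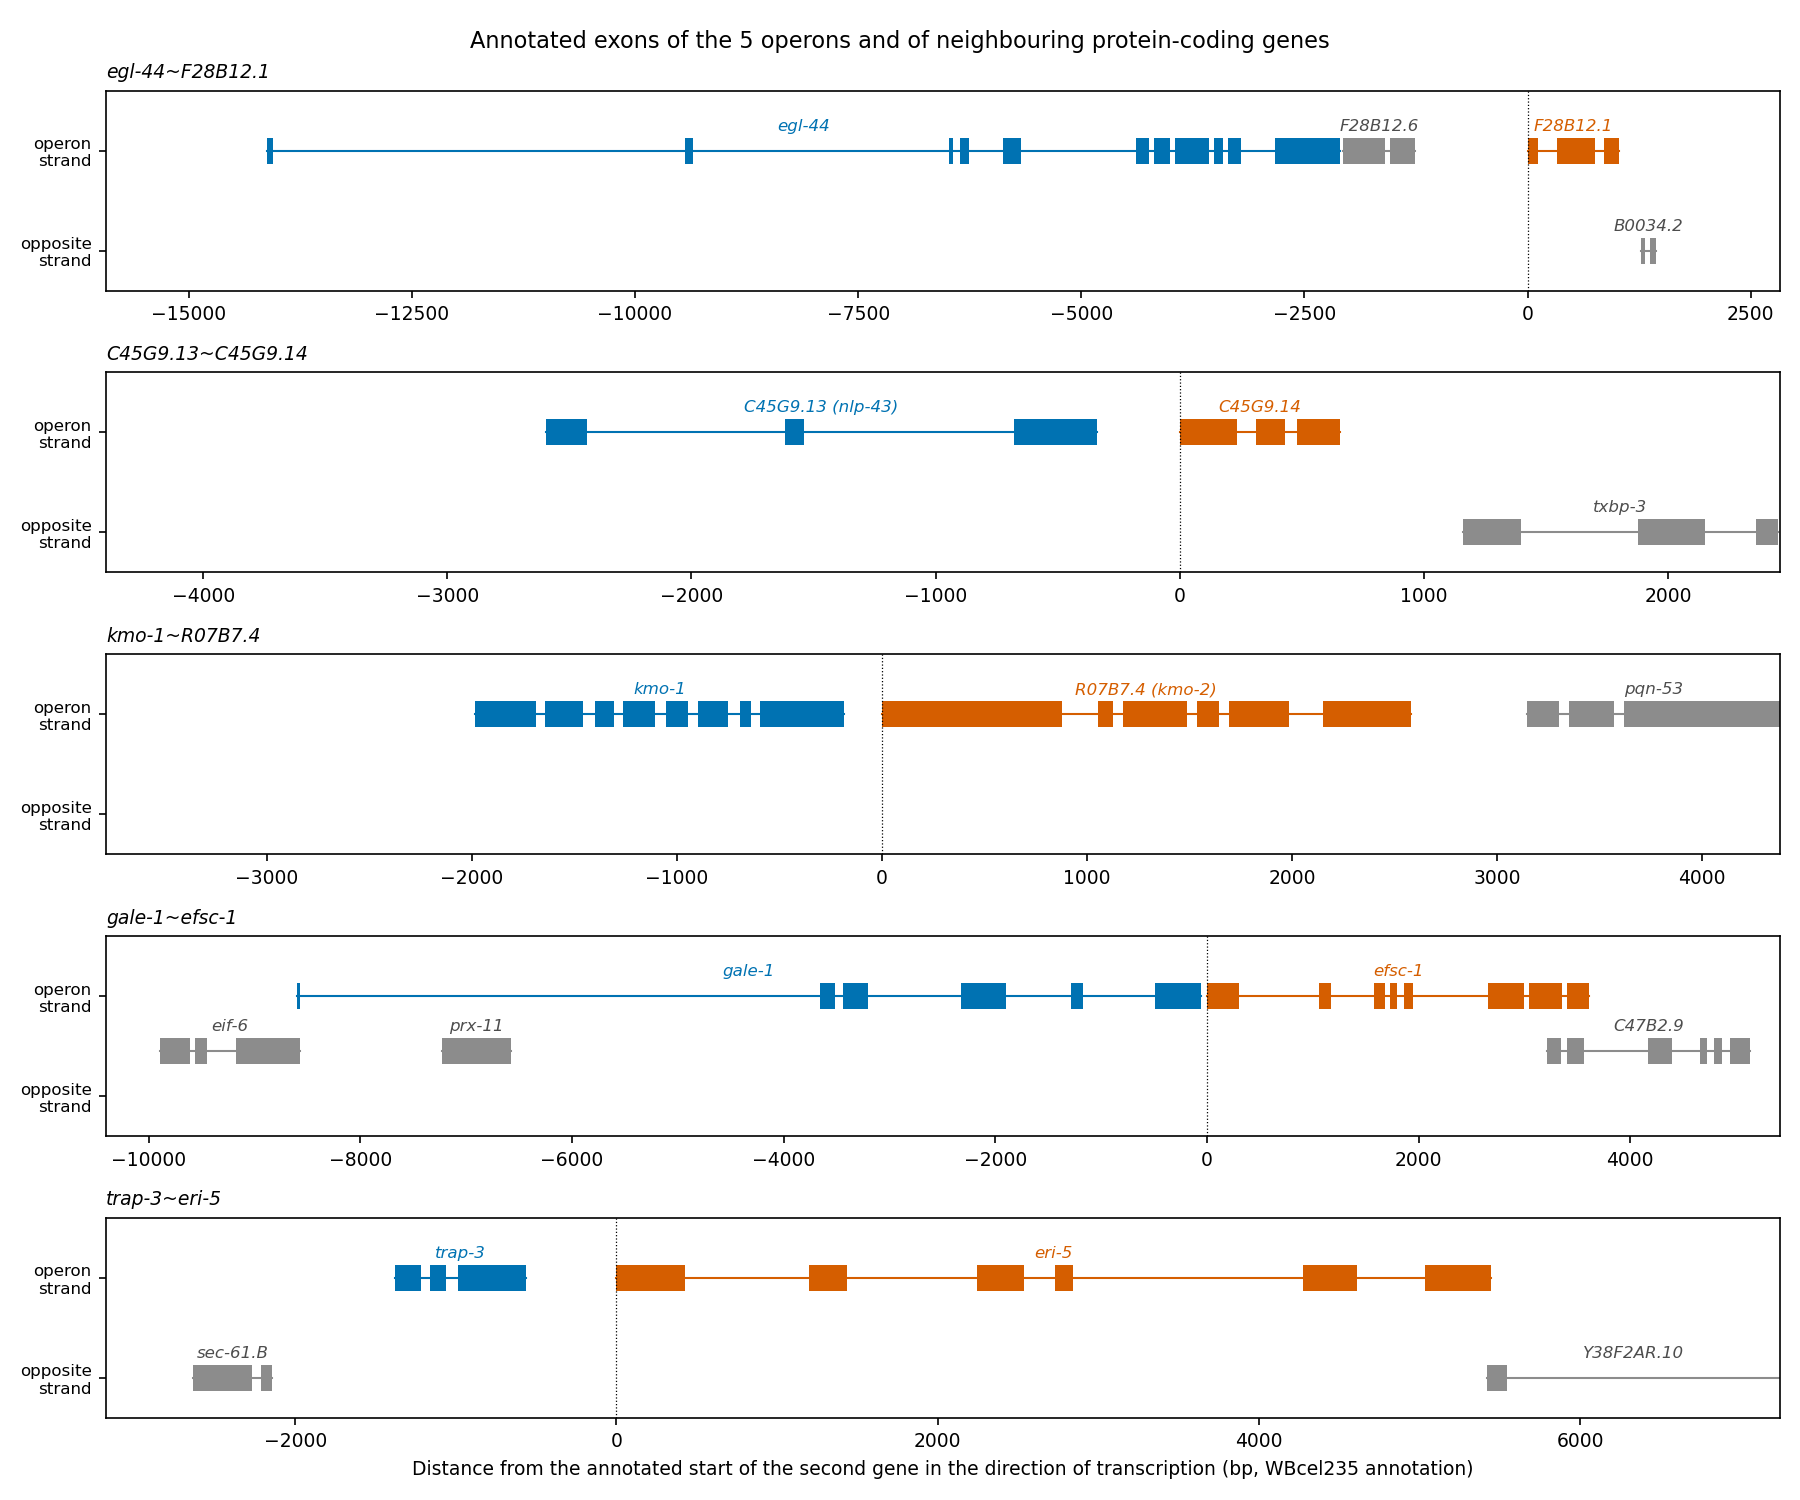
Annotated exons (boxes) of the first genes (blue), the second genes (orange) and neighbouring protein-coding genes (grey) by distance in bp from the annotated start of the second gene, drawn to scale along each panel, with the operon strand above the opposite strand. Same-strand neighbours that overlap an operon gene are drawn on a lower line, as *C47B2.9* at *efsc-1* and *eif-6* and *prx-11* at *gale-1*. The distance between the genes of a pair ranges from 51 bp in *gale-1~efsc-1* to 2096 bp in *egl-44~F28B12.1*, where *F28B12.6* lies between them.

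Overlapping genes can share counted reads. Exons of *C47B2.9* overlap those of *efsc-1* by 288 bp on the same strand, of an exon length of 1533 bp, which leaves the count of *efsc-1* uncertain to that extent. *C47B2.9* had 865 and 614 reads in mock compared with 840 and 813 in *xrn-2(RNAi)*, a log2 fold change of -0.28 and 0.36. *prx-11*, which lies in an intron of *gale-1* and shares no exon with it, had -0.50 and -0.71 (edgeR adjusted p = 0.445). The overlap of *eif-6*, a translation initiation factor, with *gale-1* is 34 bp, and that of *Y38F2AR.10* with *eri-5* is 23 bp on opposite strands. Whether the counting used the strand is not stated in the methods.

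The genes on either side of the operons were not part of the choice, and none passed the edgeR test, as 0% of the 16178 genes tested did (2020 at an unadjusted p under 0.05, and 1273 higher and 1456 lower by DESeq2). Upstream of *egl-44*, on the same strand, the protein kinase gene *vrk-1* had log2 fold changes of 1.50 and 0.81 (0.89 ± 0.33 by edgeR, adjusted p = 0.425). Downstream of *F28B12.1*, *B0034.2* on the opposite strand had no more than 8 reads in any library. *txbp-3*, which converges on *C45G9.14* with 502 bp between the annotated ends, had -0.09 and 0.65 (adjusted p = 0.991). *pqn-53*, which lies 567 bp after *R07B7.4* on the same strand, had 0.35 and 0.47 (adjusted p = 0.868). *sec-61.B*, a translocon gene that starts 769 bp before *trap-3* on the other strand, had -0.62 and -1.54 (adjusted p = 0.35). Other flanking genes were *C45G9.6* (0.07 and -0.06), *R07B7.6* (0.32 and 1.12), *pbs-2* (0.73 and 0.17), *nlp-15* (-0.19 and 0.51) and *Y38F2AR.12* (-1.02 and 0.45).

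Whether the operon genes moved with the partners they work with was examined for lists of pathway genes. In the kynurenine pathway, by which tryptophan is degraded, the lower level of *kmo-1* was shared by most of the other enzymes. Of the 8 genes other than *kmo-1* and *R07B7.4*, 7 had fewer reads in *xrn-2(RNAi)* in both replicates, with total-count and with TMM scaling. Of the 16178 genes tested, 16.6% were lower in both replicates with total-count scaling, and 4790 genes were with TMM. The list's median log2 fold change was -1.44 in replicate 1 and -0.94 in replicate 2, against 0.17 and 0.37 over all genes tested. *haao-1*, the hydroxyanthranilate dioxygenase that acts after *kynu-1*, had 2285 and 2819 reads in mock compared with 402 and 246 in *xrn-2(RNAi)*. Its log2 fold change was -3.42 ± 0.40 with an adjusted p of 0.254 by edgeR, the lowest that any gene reached. *tdo-2*, the tryptophan dioxygenase at the head of the pathway, had -1.66 and -0.87 (adjusted p = 0.262), and the kynureninase *kynu-1* had -1.37 and -3.65 (adjusted p = 0.339). *afmd-1*, *nkat-1*, *nkat-3* and *acsd-1* were between -0.48 and -1.53. *umps-1*, with 0.13 and 1.26, was the exception. None of the 8 passed the edgeR test in either direction.

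Partners of *trap-3* were likewise lower. All 5 measured genes of the translocon list, *trap-1*, *trap-2*, *trap-4*, *sec-61.A* and *sec-61.B*, had fewer reads in both replicates with either scaling, with a median log2 fold change of -0.81 and -1.35. Of the 16178 genes tested, 16.6% were lower in both replicates with total-count scaling and 4790 genes with TMM. The conditions overlapped for *trap-2*, with a scaled 12561 in *xrn-2(RNAi)* replicate 1 against 11568 in mock replicate 2, and not for the others. *trap-4* had 21823 and 14632 reads in mock compared with 13787 and 8184 in *xrn-2(RNAi)*, or -0.90 and -0.88 (adjusted p = 0.299). *trap-3*, at -0.69 and -0.60, was of similar size. None of the 5 passed the edgeR test, and 4 other listed names were not matched.

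**Figure D5:**
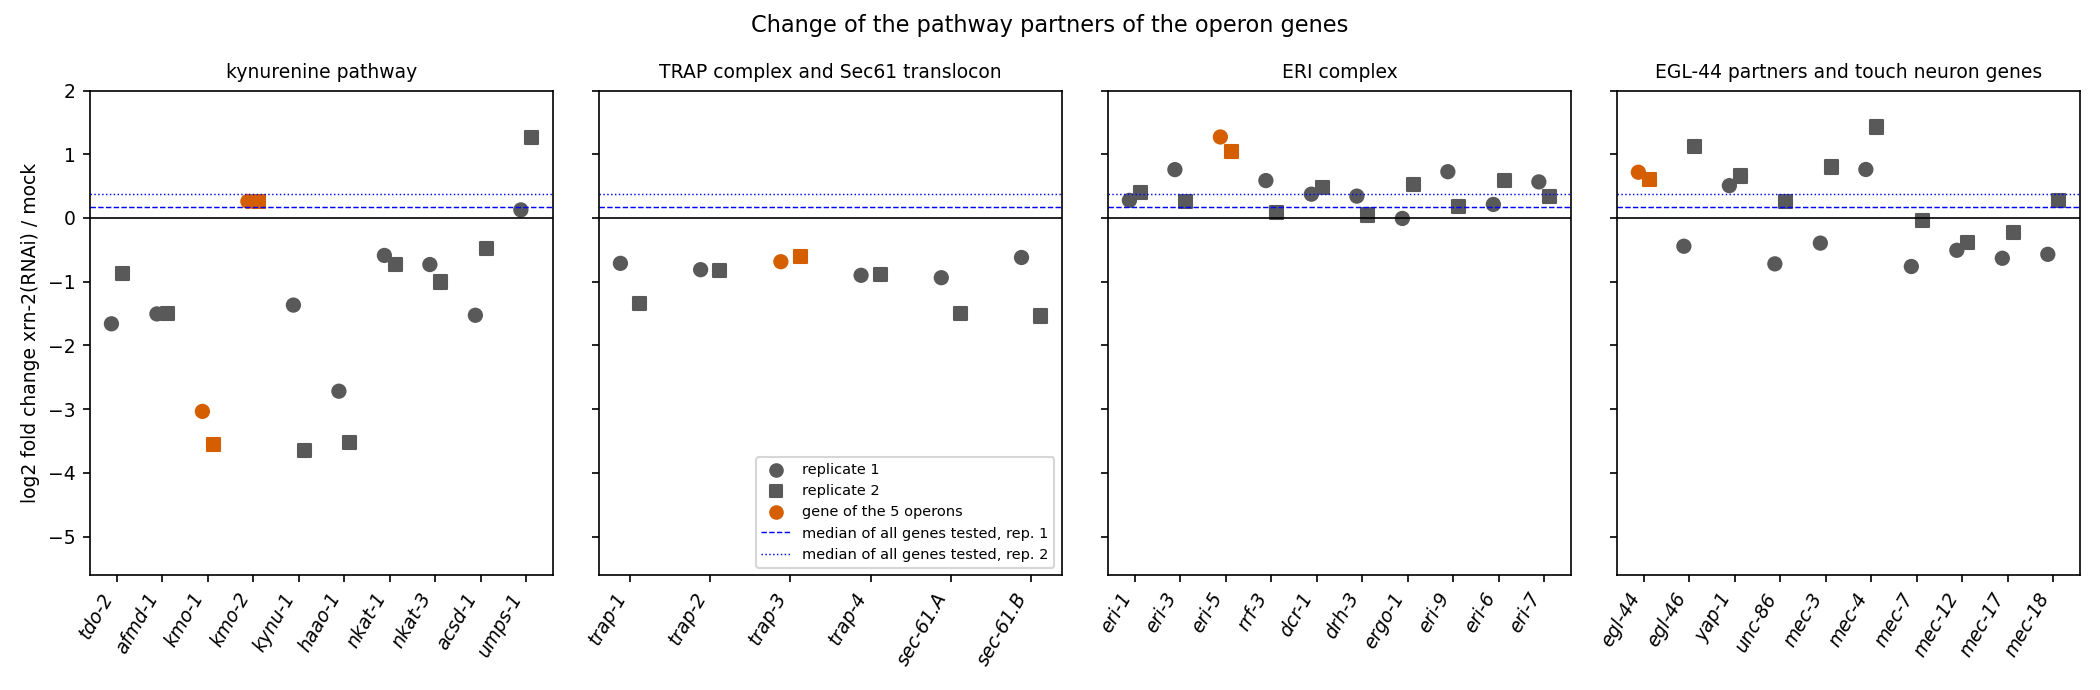
Log2 fold change between *xrn-2(RNAi)* and mock with total-count scaling in replicate 1 (circles) and replicate 2 (squares) of genes in 4 pathway lists, with the genes of the 5 operons in orange and the median of all genes tested as blue lines (0.17 dashed, 0.37 dotted). The kynurenine and translocon genes lie below 0 apart from *umps-1* and *kmo-2* (*R07B7.4*), and the ERI genes other than *eri-5* lie between -0.01 and 0.76.

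In contrast, *eri-5* had higher log2 fold changes than the other genes of the ERI list. Its pair was chosen by this same contrast, so this is a description only. The other 9 listed genes, among them *dcr-1*, *rrf-3* and *eri-1*, had log2 fold changes from -0.01 to 0.76 in replicate 1 and from 0.05 to 0.59 in replicate 2, with medians of 0.37 and 0.34 near those of all genes. *eri-5* had 1.27 and 1.04, and 1.10 and 0.66 with TMM scaling. With TMM scaling, 3 of the 9 were higher in both replicates, against 8 with total counts, so that their direction rests on the scaling. Of the 16178 genes tested, 49.1% were higher in both replicates with total counts and 4850 genes were with TMM. None of the 9 passed the edgeR test. Genes that work with *egl-44* or that mark touch neurons, which EGL-44 helps to restrict, were mixed. Of 9, 2 were higher and 3 lower in both replicates with total counts, and 2 and 5 with TMM, and none passed the test. The cofactor gene *yap-1* had 0.51 and 0.66 (adjusted p = 0.678), and the touch receptor channel gene *mec-4* had 0.76 and 1.43 (adjusted p = 0.562). The tubulin genes *mec-7* and *mec-12* had -0.76 and -0.04 (adjusted p = 0.486) and -0.51 and -0.39 (adjusted p = 0.377), and *mec-17*, a tubulin acetyltransferase gene, had -0.63 and -0.22 (adjusted p = 0.418). For *gale-1*, 5 genes of a list on UDP-sugars and their synthesis had a median of 0.72 and 0.32, and none was lower in both replicates. *gale-1*, whose pair was chosen by this contrast, had -0.99 and -1.03. The listed *uap-1* was not matched. With TMM scaling, 1 of the 5 was higher and 1 lower in both replicates. A last list held 12 genes of 3′ end cleavage, termination and *trans*-splicing, on which all operons depend. Of these, 9 were higher in both replicates with total-count scaling and 6 with TMM (49.1% and 4850 of the 16178 genes tested), the median was 0.51 and 0.33, and none passed the test.

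Outside the 5 operons, the listed operon nearest to each was picked by the second-minus-first difference in both replicates. Its make-up was similar for *gale-1~efsc-1* and *trap-3~eri-5*. For the other pairs it differed or was limited by depth. The nearest to *gale-1~efsc-1* was *vha-14~F55H2.5*, whose first gene encodes a vacuolar ATPase subunit and had -1.15 in both replicates, with 0.72 and 1.14 for *F55H2.5*. The nearest to *trap-3~eri-5* was *glr-6~F41B4.3*, with -0.64 and -0.26 for *glr-6*, a glutamate receptor subunit gene, and 1.25 and 1.53 for *F41B4.3*. Neither *kmo-1~R07B7.4* nor *C45G9.13~C45G9.14* had a close neighbour. Their distances over both differences were 0.93 and 0.84, against 0.14 to 0.16 for the remaining pairs. The nearest to *kmo-1~R07B7.4*, *C23G10.6~nas-28*, had -1.44 and -2.78 for *C23G10.6* and 0.92 and 1.00 for the astacin protease gene *nas-28*. *pqm-96~dao-6* was nearest to both *egl-44~F28B12.1* and *C45G9.13~C45G9.14*. Its second gene *dao-6* had 11 and 8 reads in mock compared with 143 and 409 in *xrn-2(RNAi)*, but its first gene *pqm-96* had at most 17 reads, so that this pair is limited by depth.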

How the data were processed

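Poly(A) RNA from 2 mock and 2 *xrn-2(RNAi)* cultures was sequenced by the authors, who prepared TruSeq libraries, aligned reads to ce10 (QuasR, spliced alignment) and deposited raw counts of reads overlapping the exons of each WormBase gene, as whole numbers without normalization. Samples were assigned by title. Of 20380 gene identifiers, 19179 matched the naming table. Operon membership came from the study's operon list.

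As in the study's methods, log2 fold changes compare the libraries of the same replicate, brought to a common total, with a pseudocount of 8. edgeR 4.0.16 (R 4.3.3; TMM, filterByExpr, glmQLFit, glmQLFTest, Benjamini-Hochberg over all features) was fitted on all 16178 genes and on 1320 operons with both genes passing the filter, with the replicate as a block, since the methods take ratios within a replicate. The standard error of an edgeR estimate is its size over the root of the F statistic. DESeq2 1.42.0 was also run. Exact permutation of 2 libraries against 2 cannot pass 0.05, and none was made. Nothing in the labels says that same-numbered cultures share a day. With the block, p-values measure only how far the change differed between the 2 replicates, with the spread pooled in part across features. The spread between cultures of the same condition enters only in the fits without the block.

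Named genes are the 10 operon genes, their annotated neighbours, the genes of the pathway lists and, for each operon, the nearest other operon. The operons, lists and tests were chosen with earlier results of these data known. A list on selenocysteine incorporation was to be used only if the reference annotated *efsc-1* so, and was left out. Exon lengths and distances come from the WBcel235 annotation. Alternatives were a pseudocount of 1 or 32, scaling by TMM or median of ratios, a floor of 50 on the mean scaled count, fits without the block or the filter, each replicate alone and coding in place of exon length. Leaving out single libraries in the descriptive values was added after seeing the data.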

Additional observations from a re-analysis of the deposited data

How the results depend on the processing

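Each of the 5 operon differences kept its direction under every alternative to its value. The pairs were chosen for this direction in both replicates, so that it was kept is largely set by the choice and is no support. With a pseudocount of 32, *egl-44~F28B12.1* came to 2.55 and *C45G9.13~C45G9.14* to 1.89, and the latter to 5.27 with a pseudocount of 1. *C45G9.13~C45G9.14* was 5.87 by edgeR with or without the replicate block and 5.97 by DESeq2. Leaving out a library or a replicate, the differences ranged from 2.20 to 3.41 for *egl-44~F28B12.1*, 3.28 to 3.60 for *C45G9.13~C45G9.14*, 3.18 to 3.93 for *kmo-1~R07B7.4*, 1.03 to 2.91 for *gale-1~efsc-1* and 1.01 to 2.59 for *trap-3~eri-5*. *R07B7.4* changed sign, at -0.019 with TMM scaling, -0.015 with median-of-ratios scaling, -0.0095 by edgeR with the block and -0.015 by DESeq2. Operons that met the cut-off in each replicate numbered 17 in place of 8 with a pseudocount of 1. With a replicate or a mock library left out they were 23 to 52 for the second gene and 18 to 44, in place of 12, for the first.

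Same-numbered libraries deviated together from the means of their conditions (r = 0.57 over 16178 genes). The labels do not say what the numbers share, but the methods place both replicate 2 libraries later in L4 than those of replicate 1. The part of developmental time in this correlation was not tested. Without the replicate block, 0 operons passed in either direction (132 at an unadjusted p under 0.05), against 11 with the second and 9 with the first gene higher with it, and DESeq2 with the block called 80 and 54. Leaving out a library as well, 0 to 12 operons passed with the second gene higher and 0 to 7 with the first. Without *xrn-2(RNAi)* replicate 1 or 2 both counts were 0, without mock replicate 1 they were 12 and 4, and without mock replicate 2 they were 4 and 7. In such a fit the lone library is assumed to vary like the others. No gene passed in edgeR with or without the block (2020 and 1644 at an unadjusted p under 0.05), and DESeq2 called 1273 higher and 1456 lower. The cause of these differences was not tested. Coding lengths were read from the annotation, and with them the second gene was still the lower of each pair in mock. Depth limits *C45G9.14* alone among the 10 genes, with 1 and 2 reads in mock.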
